A study of Mus musculus with 6 samples.

Results

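The genes described here encode 9 receptors and enzymes through which microglia sense purine nucleotides and related signals: the metabotropic receptors P2ry6, P2ry12, P2ry13 and P2ry14, the ATP-gated channels P2rx4 and P2rx7, the adenosine A3 receptor Adora3, the P2Y-like receptor Gpr34 and the ectonucleotidase Entpd1. They were taken by gene symbol from the array annotation, as 9 of 19057 genes with a probe on the array. They are represented by 21 probes, and all of these are accounted for below. RNA came from microglia isolated from mice at postnatal day 3 and was measured on 6 Illumina beadchips. LRRK2KO mice, which carry a disrupted Lrrk2 gene (leucine-rich repeat kinase 2), are labelled with strain B6.129X1(FVB)-Lrrk2tm1.1Cai/J. Ntg mice were C57BL/6. The labels do not say that the Ntg mice were littermates, so the knockout and the strain background cannot be told apart. In culture, cells of each genotype received lipopolysaccharide (LPS, the bacterial ligand of Toll-like receptor 4) for 6 h, LPS for 24 h, or phosphate-buffered saline (PBS) for 24 h. A single array stands for every combination.

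ATP and ADP leak from damaged or stressed cells and act on P2X channels and P2Y receptors. In microglia P2Y12 directs process extension towards injury, P2X7 activation by high ATP promotes inflammasome activation and release of interleukin-1 beta, P2X4 is linked to pain signalling in the spinal cord, and P2Y6, a receptor for UDP, is linked to phagocytosis. The ectonucleotidase CD39, the Entpd1 product, degrades ATP and ADP to AMP, which other enzymes turn into adenosine, the ligand of A3 and its relatives. P2ry12 and Gpr34 are widely used markers of resting microglia in the brain.

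Of the 9 genes, 6 were measurable in these cultures and 3 were not. P2ry12, Gpr34 and Entpd1 lay at background on every array, PBS arrays included. Among the other 6, Adora3, by the 1 of its 3 probes that was detected, rose at 6 h and rose further by 24 h of LPS. P2ry14 rose at 6 h, and 1 of the P2rx7 probes fell at both times. P2ry6, P2ry13 and P2rx4 passed in no comparison by the brightest probe, which stands for each gene. A second P2rx4 probe was lower at 6 h, a call not checked under other settings. None of the 6 genes differed between LRRK2KO and Ntg at the threshold used.

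Upstream sequences are shown for Adora3, P2ry14 and P2rx7, the 3 genes that passed in a comparison between arms. Each is the 250 bases before an annotated transcription start, written 5′ to 3′ on the gene's own strand, from RefSeq on GRCm38.p6. The Adora3 window is chr3:105904171-105904420 on the plus strand, the P2ry14 window, the most upstream of 4 annotated for that gene, is chr3:59153493-59153742 on the minus strand, and the P2rx7 window, the most upstream of 2, is chr5:122643677-122643926 on the plus strand. Capitals mark matches to TGANTCA, a loose form of the AP-1 motif with any base at N, searched on both strands.
Adora3: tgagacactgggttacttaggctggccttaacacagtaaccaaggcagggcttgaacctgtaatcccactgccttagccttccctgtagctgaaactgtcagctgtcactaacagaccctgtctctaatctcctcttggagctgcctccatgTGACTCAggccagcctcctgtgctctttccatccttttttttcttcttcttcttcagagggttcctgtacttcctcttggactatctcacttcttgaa
P2ry14: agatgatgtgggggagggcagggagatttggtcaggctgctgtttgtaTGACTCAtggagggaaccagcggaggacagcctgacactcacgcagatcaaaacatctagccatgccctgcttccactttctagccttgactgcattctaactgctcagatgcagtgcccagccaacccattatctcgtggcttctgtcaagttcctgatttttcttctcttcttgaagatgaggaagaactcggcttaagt
P2rx7: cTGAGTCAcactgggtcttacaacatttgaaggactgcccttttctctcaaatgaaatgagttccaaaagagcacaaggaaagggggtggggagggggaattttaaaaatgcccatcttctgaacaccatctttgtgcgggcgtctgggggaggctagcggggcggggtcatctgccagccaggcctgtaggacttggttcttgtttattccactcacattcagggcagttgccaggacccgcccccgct

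The 3 printed windows each held 1 match, ending 92 bases (Adora3), 196 bases (P2ry14) and 243 bases (P2rx7) before the start. Among all 12 windows annotated for 7 of the 9 genes, 4 held a match, including a second P2ry14 window. Of 32851 windows of the same length genome-wide, 6.75% held a match. The match in the second P2ry14 window reads TGAATCA, while the 3 printed matches have C or G at N. The interferon-stimulated response element and the NF-kB motif had no match in any of the 12 windows, and they occurred in 2.98% and 0.356% of all windows. The PU.1 motif GAGGAAGT had 1 match, in the Adora3 window, against 2.44% of all windows. A match describes these letters and does not show binding.

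A probe counted as detected with a detection p under 0.01, which 13126 to 15049 of 45281 probes reached per array, and the tests covered the 8598 genes that were detected on 2 or more arrays. Lrrk2 had 1 of 36 values detected, which checks no genotype label. Of 11 microglia and macrophage markers on the arrays, 9 were detected on all 6 (Itgam, Csf1r, Aif1, Tyrobp, Cx3cr1, Trem2, Ptprc, Fcgr3 and Sall1), Siglech was detected on none, and Tmem119 was detected on some. Endothelial markers were undetected throughout (0 of 5), and of 6 neuronal markers Tubb3, Rbfox3, Snap25 and Syt1 were too, while the other 2, Map2 and Syn1, gave 0 to 2 detected markers per array. In bulk RNA, fewer cells of a type and less RNA per cell cannot be told apart.

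Differences were estimated with limma on the 6 arrays together, in a model that adds genotype to arm and leaves 2 residual degrees of freedom. An adjusted p under 0.05 counted as a call, with Benjamini-Hochberg adjustment over all 8598 genes. Levels are normalized log2 signals, and they are compared between arrays for 1 probe, never between probes. Whether arrays hold RNA of separate cultures or mice is not labelled. With 1 array per combination, the p-values rest on how far arm differences disagree between the genotypes, with variances moderated over all genes. That spread may be technical or a response that differs by genotype, and it is not a spread between replicates. The LPS 6 h arrays have only the PBS 24 h arrays as a reference, so exposure and culture time cannot be told apart in that comparison.

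P2ry12, the ADP receptor, had 2 probes with intensities between 91.5 and 114, and 0 of 12 values were detected. Gpr34, a receptor for lysophosphatidylserine, had 2 probes between 88.8 and 101, again with 0 of 12 values detected. Entpd1 had 2 probes between 87.9 and 108 and 0 of 12 values detected. For scale, the median intensity of all probes lay between 94.9 and 111 on the 6 arrays. None of the 36 values of these genes was detected at a detection p under 0.05 either, the lowest being 0.0865. No difference between arms or genotypes can be read for these 3 genes, and a value at background does not show that the transcript was absent.

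Adora3, the Gi-coupled A3 adenosine receptor, had the largest change of the 6 measurable genes. Its detected probe had log2 signals of 5.84 in LRRK2KO and 5.19 in Ntg cells at PBS 24 h, 6.58 in LRRK2KO and 5.94 in Ntg cells at LPS 6 h, and 7.59 in LRRK2KO and 7.55 in Ntg cells at LPS 24 h. The arms did not overlap, and within each genotype the order was PBS, LPS 6 h, LPS 24 h.

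Adora3 was 4.16-fold higher at LPS 24 h than at PBS, a log2 rise of 2.06 ± 0.20 (SE, n = 2 arrays per arm; limma adjusted p = 0.0030). The rise was 1.75 in LRRK2KO and 2.36 in Ntg cells, and it passed in 15 of 15 alternative settings and left-out arrays. At LPS 6 h against PBS the rise was 0.74 ± 0.20 (adjusted p = 0.0299). This smaller rise kept its sign but missed the threshold in 7 of 15 alternatives, among them leaving out the Ntg LPS 6 h, Ntg PBS, LRRK2KO LPS 6 h or LRRK2KO PBS array (adjusted p up to 0.177). Between LPS 6 h and LPS 24 h it rose by 1.31 ± 0.20 (adjusted p = 0.0106), which missed the threshold without the Ntg LPS 6 h or the Ntg LPS 24 h array (adjusted p up to 0.0949). Without background subtraction, in the authors' normalized values, the 24 h rise was 1.08 on the log2 scale.

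The Adora3 rise rests on 1 of its 3 probes. The other 2, annotated to the same transcript, were undetected in 12 of 12 values. The annotated span of Adora3 overlaps that of Tmigd3, whose 1 probe was undetected on all 6 arrays (88.7 to 99.0 in intensity). Which transcript of the locus the detected probe reports was not tested.

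Some markers of other cells were higher in the same comparison. The summed normalized signal of 7 astrocyte markers was 1752 in LRRK2KO and 2356 in Ntg cells at LPS 24 h, against 281 in LRRK2KO and 308 in Ntg cells at PBS 24 h. Of 5 astrocyte markers tested, Gja1 alone passed at LPS 24 h against PBS, with a log2 rise of 4.05 (adjusted p = 0.0009), while Slc1a3, Aldh1l1, Gfap and Slc1a2 differed by -0.44, -0.48, 0.09 and 0.24 (adjusted p from 0.169 to 0.855). Of the whole list, Gja1 alone was detected on all 6 arrays, S100b was detected on none, and the number of astrocyte markers detected was 1 in LRRK2KO and 3 in Ntg cells at LPS 24 h, against 3 in LRRK2KO and 5 in Ntg cells at PBS 24 h. Of 3 neutrophil markers, S100a8 was detected on all arrays and Mpo and Elane on none, and their summed signal was 1744 in LRRK2KO and 2525 in Ntg cells at LPS 24 h, against 157 in LRRK2KO and 118 in Ntg cells at PBS 24 h. The part of these lists in the Adora3 result was not tested. Of 5 markers of mast cells, a cell type known for Adora3 expression, Kit, Fcer1a, Mcpt4 and Cma1 were undetected on every array, Cpa3 was detected on the Ntg LPS 6 h array alone, and the list's summed signal lay between 99.6 and 126.

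**Figure D1:**
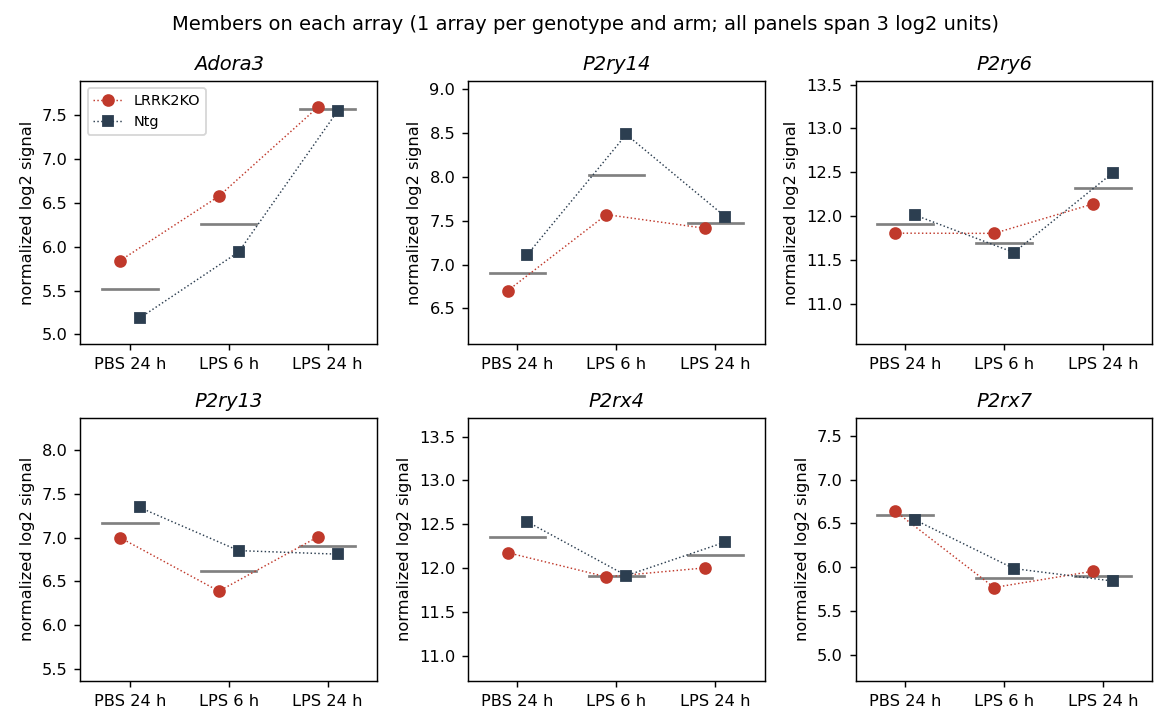
Normalized log2 signal of the 6 measurable genes (y axis) by arm (x axis), with 1 point per array, red circles for LRRK2KO, dark squares for Ntg and grey bars for the mean of the 2 arrays of an arm. Adora3 climbed from PBS to LPS 24 h in both genotypes, P2ry14 was highest at LPS 6 h, and the other panels span less.

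P2ry14, the receptor for UDP-glucose and UDP, was highest at LPS 6 h. Its brighter probe read 6.70 in LRRK2KO and 7.11 in Ntg cells at PBS 24 h, 7.57 in LRRK2KO and 8.48 in Ntg cells at LPS 6 h, and 7.41 in LRRK2KO and 7.55 in Ntg cells at LPS 24 h. All LPS values lay above both PBS values, and the Ntg LPS 6 h array stood highest.

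P2ry14 was 2.17-fold higher at LPS 6 h than at PBS, a log2 rise of 1.12 ± 0.22 (SE, n = 2 arrays per arm; adjusted p = 0.0101), by 0.87 in LRRK2KO and 1.37 in Ntg cells. The call was lost in 1 of 15 alternatives, without the Ntg PBS array (adjusted p = 0.0661). A second detected probe gave 1.18 ± 0.22 (adjusted p = 0.0084 over all probes), and the third was undetected on all arrays. The difference of LPS 24 h against PBS was 0.57 ± 0.22 (adjusted p = 0.136), and that of LPS 24 h against LPS 6 h was -0.55 ± 0.22 (adjusted p = 0.117). Neither passed, so the level at 24 h could not be placed apart from PBS or from 6 h.

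Marker sums also differed at LPS 6 h. The astrocyte sum was 768 in LRRK2KO and 1115 in Ntg cells at LPS 6 h, against 281 in LRRK2KO and 308 in Ntg cells at PBS 24 h. Of 5 tested markers, Gja1 and Slc1a2 were the 2 that passed, both higher. Slc1a3, Gfap and Aldh1l1 differed by -0.38, -0.20 and 0.11 (limma adjusted p from 0.349 to 0.678). Astrocyte markers detected numbered 3 in LRRK2KO and 3 in Ntg cells at LPS 6 h, against 3 in LRRK2KO and 5 in Ntg cells at PBS 24 h. The neutrophil sum was 746 in LRRK2KO and 613 in Ntg cells at LPS 6 h, against 157 in LRRK2KO and 118 in Ntg cells at PBS 24 h, with S100a8 the 1 marker tested. The part of these lists in the P2ry14 result was not tested.

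P2ry13, an ADP receptor that neighbours P2ry12 in the genome, showed lower values at LPS 6 h than at PBS that missed the threshold. It read 7.0 in LRRK2KO and 7.34 in Ntg cells at PBS 24 h, 6.39 in LRRK2KO and 6.85 in Ntg cells at LPS 6 h, and 7.01 in LRRK2KO and 6.81 in Ntg cells at LPS 24 h. The LPS 6 h and PBS arrays did not overlap, and the LPS 24 h and PBS arrays did. The difference at 6 h was -0.55 ± 0.20 (adjusted p = 0.0730) and that at 24 h was -0.26 ± 0.20 (adjusted p = 0.435). P2ry12, P2ry13 and P2ry14 all lie within the annotated span of Med12l, whose 3 probes were undetected in 18 of 18 values. Within this cluster P2ry14 rose at 6 h, P2ry13 did not pass, and P2ry12 was not measurable.

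P2ry6, the UDP receptor, was detected on all 6 arrays. Its log2 signal was 11.81 in LRRK2KO and 12.01 in Ntg cells at PBS 24 h, 11.80 in LRRK2KO and 11.59 in Ntg cells at LPS 6 h, and 12.14 in LRRK2KO and 12.49 in Ntg cells at LPS 24 h. The LPS 24 h arrays were above all others. The difference was 0.62 ± 0.19 between LPS 24 h and LPS 6 h (adjusted p = 0.0604), 0.41 ± 0.19 between LPS 24 h and PBS (adjusted p = 0.204) and -0.21 ± 0.19 between LPS 6 h and PBS (adjusted p = 0.383). The first passed in 5 of 15 alternatives, and the last turned to 0.28 under scaling of the arrays to equal medians in place of quantile normalization.

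P2rx4, the ATP-gated cation channel, was detected strongly by 2 probes. The brighter one read 12.18 in LRRK2KO and 12.53 in Ntg cells at PBS 24 h, 11.90 in LRRK2KO and 11.92 in Ntg cells at LPS 6 h, and 12.004 in LRRK2KO and 12.30 in Ntg cells at LPS 24 h. It differed by -0.45 ± 0.16 at LPS 6 h against PBS (adjusted p = 0.0681) and by -0.20 ± 0.16 at LPS 24 h against PBS (adjusted p = 0.445). The 6 h difference passed in 4 of 15 alternatives, namely the authors' normalized values (adjusted p = 0.0253), offset 50 (0.0358), the mean of probes (0.0329) and an intensity trend (0.0213). Under median scaling the 6 h and 24 h differences were 0.0515 and 0.0142.

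The second P2rx4 probe read 11.74 in LRRK2KO and 11.88 in Ntg cells at PBS 24 h, 11.24 in LRRK2KO and 11.11 in Ntg cells at LPS 6 h, and 11.32 in LRRK2KO and 11.06 in Ntg cells at LPS 24 h. Both PBS arrays were above the 4 LPS arrays. In a fit over all 13549 probes it was lower at LPS 6 h by -0.64 ± 0.17 (adjusted p = 0.0283) and differed by -0.62 ± 0.17 at LPS 24 h (adjusted p = 0.0644). The probes thus disagree on whether P2rx4 passed at 6 h. The alternatives were not run for the second probe by itself, so its difference under median scaling is not known. The annotated span of P2rx4 overlaps that of Camkk2, whose 4 probes were detected in 18 of 24 values.

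P2rx7, the ATP-gated channel upstream of the NLRP3 inflammasome, gave different patterns by probe. Its 5 probes are annotated to 4 transcripts, and 4 of them were detected often enough to be fitted. The brightest, ILMN_2620381, read 6.64 in LRRK2KO and 6.54 in Ntg cells at PBS 24 h, 5.77 in LRRK2KO and 5.99 in Ntg cells at LPS 6 h, and 5.96 in LRRK2KO and 5.84 in Ntg cells at LPS 24 h. Both PBS arrays were above the 4 LPS arrays, and the genotypes lay close together in each arm.

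By this probe, P2rx7 fell by 0.71 ± 0.16 (log2, SE, n = 2 arrays per arm) at LPS 6 h against PBS (adjusted p = 0.0167) and fell by 0.69 ± 0.16 at LPS 24 h (adjusted p = 0.0392). Between the LPS times the difference was 0.02 ± 0.16 (adjusted p = 0.935). The 6 h call was lost in 4 of 15 alternatives, without the Ntg PBS, LRRK2KO PBS or LRRK2KO LPS 6 h array (adjusted p up to 0.0972) and with the mean of all detected probes, which gave -0.11 (adjusted p = 0.712). The 24 h call was lost in 9 of 15, among them each of the PBS and LPS 24 h arrays left out (adjusted p up to 0.291). Without background subtraction, in the authors' normalized values, the log2 differences were -0.34 at 6 h and -0.33 at 24 h. The probe's intensities with LPS were only 125 to 145, so the size of the fall depends on the background correction.

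The summed signal of the microglia and macrophage markers was lower with LPS, while single markers went both ways. The sum over 11 genes was 17943 in LRRK2KO and 14486 in Ntg cells at LPS 6 h, and 17596 in LRRK2KO and 17919 in Ntg cells at LPS 24 h, against 24575 in LRRK2KO and 27302 in Ntg cells at PBS 24 h. Of 10 markers tested, 6 fell at LPS 6 h (Csf1r, Aif1, Cx3cr1, Trem2, Fcgr3 and Tmem119) and Ptprc rose, and 4 fell at LPS 24 h (Csf1r, Cx3cr1, Trem2 and Tmem119) while Itgam and Fcgr3 rose. The part of these shifts in the P2rx7 and P2ry14 results was not tested.

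Probe ILMN_3162824, for another transcript, read 5.54 in LRRK2KO and 5.37 in Ntg cells at PBS 24 h, 5.23 in LRRK2KO and 6.77 in Ntg cells at LPS 6 h, and 5.26 in LRRK2KO and 5.65 in Ntg cells at LPS 24 h. The Ntg LPS 6 h array alone stood high. Its difference at LPS 6 h against PBS was 0.54 ± 0.38 (adjusted p = 0.291). Probe ILMN_3144200 was detected on 4 arrays, on all 3 Ntg arrays and on the LRRK2KO LPS 24 h array, and its difference at 6 h was 0.24 ± 0.35 (adjusted p = 0.599). Probe ILMN_1216885 was detected on 3 arrays and differed by -0.51 ± 0.19 at 6 h (adjusted p = 0.0777), and ILMN_1248003 was undetected throughout. A P2rx7 fall can therefore be stated for 1 probe and not for the gene as a whole.

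**Figure D2:**
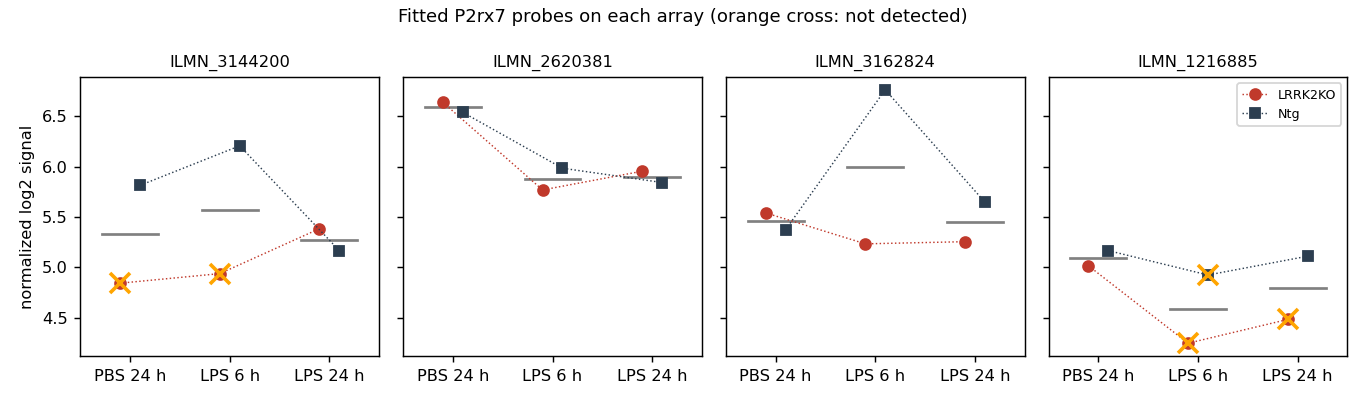
Normalized log2 signal (y axis) of the 4 fitted P2rx7 probes by arm (x axis), with 1 point per array, red circles for LRRK2KO, dark squares for Ntg, grey bars for arm means and orange crosses on undetected values. ILMN_2620381 was higher on both PBS arrays than on any LPS array, whereas ILMN_3162824 was highest on the Ntg LPS 6 h array.

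Counted over the comparison of LPS 24 h with PBS, 1 gene was higher (Adora3) and 1 lower (P2rx7) of the 6 measurable ones, against 15.5% of all genes tested that passed. At LPS 6 h against PBS, 2 were higher (Adora3 and P2ry14) and 1 lower (P2rx7), against 42% of all genes. Between the LPS times, 1 was higher at 24 h (Adora3), against 23.8% of all genes. Arms did not overlap for 4 of 6 genes at LPS 24 h against PBS, for 6 of 6 at LPS 6 h against PBS and for 4 of 6 between the LPS times, against 57.3%, 71.6% and 62.2% of all genes. With 6 genes, nothing particular to the group is read from these counts. The median log2 difference of the 6 genes was 0.10, -0.33 and 0.27 in these comparisons, beside medians over all genes of -0.01, -0.13 and 0.10. The median over all genes at LPS 6 h against PBS was 0.05 under median scaling.

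**Figure D3:**
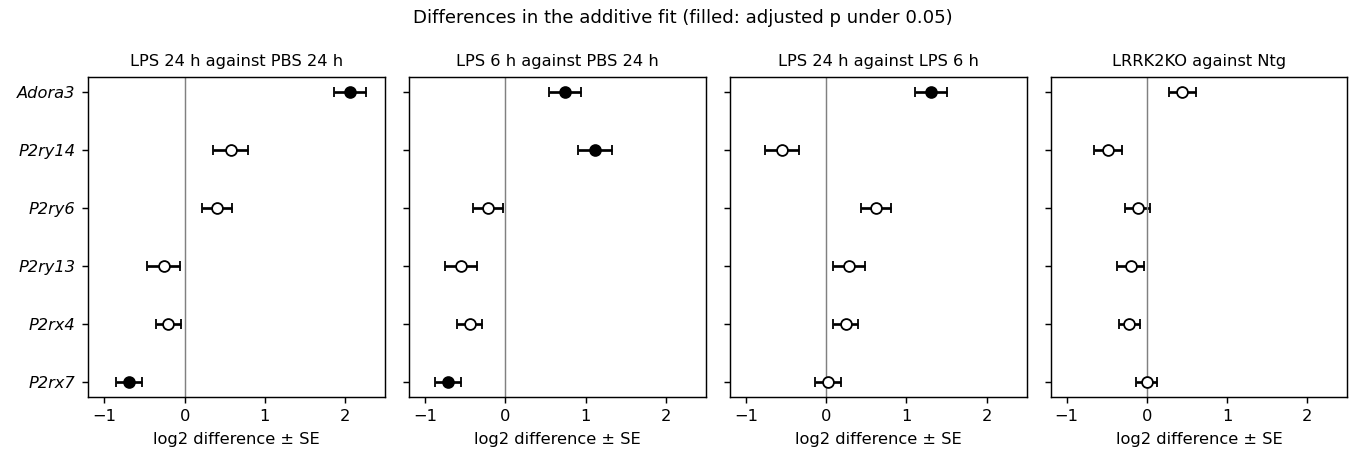
Log2 differences with standard errors (x axis) of the 6 measurable genes in the 4 comparisons of the additive fit, filled where the adjusted p was under 0.05. Adora3 was filled in all 3 comparisons of arms, P2ry14 at LPS 6 h against PBS, P2rx7 in both comparisons with PBS, and no gene in LRRK2KO against Ntg.

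Between the genotypes, averaged over the 3 arms, none of the 6 genes passed by limma, against 0.465% of all genes, and for 0 of 6 did the genotypes not overlap, against 5.85%. At an unadjusted p under 0.05 there were 2 of 6, P2ry14 and Adora3, against 16.1% of all genes. P2ry14 differed by -0.49 ± 0.18 on the log2 scale in LRRK2KO against Ntg (SE, n = 3 arrays per genotype; adjusted p = 0.267) by its brighter probe, with lower values on LRRK2KO in 3 of 3 arms. Its second probe differed by -0.27 ± 0.18 (adjusted p = 0.539 over all probes), and there LRRK2KO was higher at LPS 24 h, at 7.16 against 7.04 in Ntg cells. Adora3 differed by 0.44 ± 0.16 (adjusted p = 0.275), with higher values on LRRK2KO in 3 of 3 arms. P2rx4, P2ry13, P2ry6 and P2rx7 differed by -0.22 ± 0.13, -0.20 ± 0.16, -0.11 ± 0.15 and 0.00 ± 0.13 (adjusted p from 0.462 to 0.997). The P2rx7 value is that of ILMN_2620381. The other 3 fitted P2rx7 probes, ILMN_1216885, ILMN_3162824 and ILMN_3144200, differed by -0.49 ± 0.15, -0.59 ± 0.31 and -0.68 ± 0.28 (adjusted p = 0.232, 0.436 and 0.340 over all probes), the first with an unadjusted p of 0.0191. ILMN_1216885 was undetected on the LRRK2KO LPS 6 h, LRRK2KO LPS 24 h and Ntg LPS 6 h arrays. ILMN_3144200 was undetected on the LRRK2KO PBS and LRRK2KO LPS 6 h arrays, so the sizes of both differences are uncertain. The mean of probes differed by -0.44 (adjusted p = 0.308).

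Within an arm, 1 array stood against 1 array, so these differences had no test. Among the probes that stand for the genes, the largest were P2ry14 at LPS 6 h, 0.91 lower in LRRK2KO, Adora3 at PBS 24 h, 0.65 higher in LRRK2KO, and Adora3 at LPS 6 h, 0.64 higher in LRRK2KO. None of these probes reached 2-fold, a size passed by 3.49% of all genes at LPS 6 h, 2.74% at PBS 24 h and 3.93% at LPS 24 h. Over all 33 gaps of the 11 fitted probes, 2 reached it, both of P2rx7 at LPS 6 h. There ILMN_3162824 was 1.53 and ILMN_3144200 was 1.27 lower on the LRRK2KO array. ILMN_3144200 was undetected on that array, so the size of its gap is uncertain. The percentages above are of genes by the brightest probe, and no share over all probes was computed. The choroid plexus marker Ttr was detected on all 6 arrays and Folr1 on none, and the summed signal of that list of 4 genes was 273 to 730 on LRRK2KO arrays, against 2574 to 6855 on Ntg arrays. Border macrophage and monocyte markers, with Mrc1, Pf4 and Ms4a7 detected on all arrays and Cd163, Lyve1 and Ccr2 on none, summed to 7064 to 7676 on LRRK2KO arrays, against 9550 to 13465 on Ntg arrays. The part of these lists in any genotype difference was not tested.

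Among 37 other genes of purine signalling and metabolism, 30 had a probe and 14 were tested. They cover further P2 receptors, the ATP-release channel pannexin 1, ectonucleotidases and intracellular relatives, adenosine-handling enzymes and nucleoside transporters. The adenosine receptors Adora1, Adora2a and Adora2b had no annotated probe, so nothing can be read for them. At LPS 6 h against PBS, 8 of 14 were lower and 1 higher, against 26.2% lower and 15.8% higher of all genes, or 7 of 13 lower without Entpd4, whose probes disagree. In LPS 24 h against PBS, 3 were lower and 0 higher, against 8.99% and 6.54% of all genes. Between LPS 6 h and LPS 24 h, 5 were higher and 1 lower, against 14.1% and 9.68%, or 4 of 13 higher without Entpd4.

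Adk, the kinase that returns adenosine to AMP, fell by 1.44 ± 0.14 (log2, SE, n = 2 arrays per arm) at LPS 6 h against PBS (adjusted p = 0.0013) and rose by 1.42 ± 0.14 at LPS 24 h against LPS 6 h (adjusted p = 0.0047). The second call was lost without the Ntg LPS 24 h array (adjusted p = 0.0562). At LPS 24 h it differed from PBS by -0.03 ± 0.14 (adjusted p = 0.927). Adk read 10.84 in LRRK2KO and 10.63 in Ntg cells at PBS 24 h, 9.45 in LRRK2KO and 9.14 in Ntg cells at LPS 6 h, and 10.85 in LRRK2KO and 10.56 in Ntg cells at LPS 24 h. Low values stood at LPS 6 h in both genotypes.

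Of the intracellular members of the Entpd1 family tested, Entpd5 and Entpd6 fell at 6 h and rose between the LPS times. Both lay near background at LPS 6 h. Intensities there were 122 in LRRK2KO and 119 in Ntg cells for Entpd5, and 125 in LRRK2KO and 117 in Ntg cells for Entpd6. The 6 h falls passed in 15 of 15 alternatives, but the smallest were -0.48 for Entpd5 and -0.71 for Entpd6. Entpd6 fell by 1.46 ± 0.22 and Entpd5 by 1.07 ± 0.16 at LPS 6 h against PBS (adjusted p = 0.0048 and 0.0045), and they rose by 1.24 ± 0.22 and 1.15 ± 0.16 at LPS 24 h against LPS 6 h (adjusted p = 0.0157 and 0.0088). Both rises were lost without the Ntg LPS 24 h or the LRRK2KO LPS 24 h array, and that of Entpd6 also without the Ntg LPS 6 h array (adjusted p up to 0.0774 for Entpd5 and 0.139 for Entpd6). Entpd7 fell by 0.77 ± 0.16 at LPS 6 h (adjusted p = 0.0124), a call lost without the Ntg LPS 6 h or the Ntg PBS array (adjusted p up to 0.0919), and differed by 0.28 ± 0.16 between the LPS times (adjusted p = 0.241). Entpd4 had 2 detected probes that moved in opposite directions at LPS 6 h against PBS, by -1.17 ± 0.22 for the brighter and by 1.56 ± 0.19 for the other (adjusted p = 0.0097 and 0.0021 over all probes), so no direction is given for the gene. Nme1, a nucleoside diphosphate kinase, fell by 0.66 ± 0.15 at LPS 6 h (adjusted p = 0.0194) and rose by 0.61 ± 0.15 afterwards (adjusted p = 0.0374). Nme1 lost its calls in 4 and 6 of 15 alternatives, without the Ntg LPS 6 h, Ntg PBS or LRRK2KO PBS array, or under median scaling, in both comparisons, and without either LPS 24 h array in the later one.

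Panx1, encoding the pannexin channel that releases ATP, differed both with LPS and with genotype. Its log2 signal was 8.15 in LRRK2KO and 6.96 in Ntg cells at PBS 24 h, 7.29 in LRRK2KO and 6.29 in Ntg cells at LPS 6 h, and 6.67 in LRRK2KO and 5.69 in Ntg cells at LPS 24 h. In every arm the LRRK2KO array was higher. Panx1 fell by 1.37 ± 0.15 at LPS 24 h against PBS (adjusted p = 0.0040) and by 0.76 ± 0.15 at LPS 6 h against PBS (adjusted p = 0.0105). The 24 h call was lost in 1 alternative, with arm alone in the model (adjusted p = 0.181), and the 6 h call also without the LRRK2KO PBS array (adjusted p up to 0.311). A second Panx1 probe gave -1.32 ± 0.15 at 24 h (adjusted p = 0.0041 over all probes) and -0.46 ± 0.15 at 6 h (adjusted p = 0.0525), so the 6 h fall passed by 1 of 2 probes.

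In LRRK2KO against Ntg, Panx1 rose by 1.05 ± 0.12, or 2.08-fold (SE, n = 3 arrays per genotype; adjusted p = 0.0389), the only call among the 14 genes, against 0.163% of all genes higher and 0.302% lower. The second probe gave 1.17 ± 0.12 (adjusted p = 0.0456 over all probes). The call held in 8 of 15 alternatives (adjusted p over all 15 from 0.0224 to 0.9999). It was lost in the authors' normalized values (adjusted p = 0.0509), where 100 genes passed, without a filter on dim probes (0.101), with genotype alone in the model, and without any of the PBS or LPS 24 h arrays (up to 0.275). Between LPS 6 h and LPS 24 h, Panx1 fell by 0.61 ± 0.15 (adjusted p = 0.0340), a call lost without each of the 6 arrays in turn (adjusted p up to 0.466 over the 15 alternatives).

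P2ry2, a receptor for ATP and UTP that neighbours P2ry6 in the genome, rose by 1.31 ± 0.35 at LPS 6 h against PBS (adjusted p = 0.0293). It read 5.79 in LRRK2KO and 6.95 in Ntg cells at LPS 6 h, against 5.23 in LRRK2KO and 4.88 in Ntg cells at PBS 24 h, where the Ntg value was undetected. The call was lost in 3 of 14 alternatives, without the Ntg LPS 6 h or the Ntg PBS array and without a filter on dim probes (adjusted p up to 0.177). P2ry1, an ADP receptor, was detected on the 2 PBS arrays only and was at least 1.09-fold lower at LPS 6 h and at least 1.19-fold lower at LPS 24 h (adjusted p = 0.0090 and 0.0437 for the fitted differences). The 6 h call was lost in 1 of 14 alternatives, without the Ntg PBS array, and the 24 h call in 9 of 14, among them each of the PBS and LPS 24 h arrays left out (adjusted p up to 0.0622 and 0.275). Ada, which deaminates adenosine, was undetected at LPS 24 h and at least 1.28-fold lower there than at PBS (adjusted p = 0.0238), a call lost in 8 of 14 alternatives, among them each of those 4 arrays left out (adjusted p up to 0.215). These folds are the bright arm's mean over the higher of the dimmest detected signal and the gene's own signal on each dim array.

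**Figure D4:**
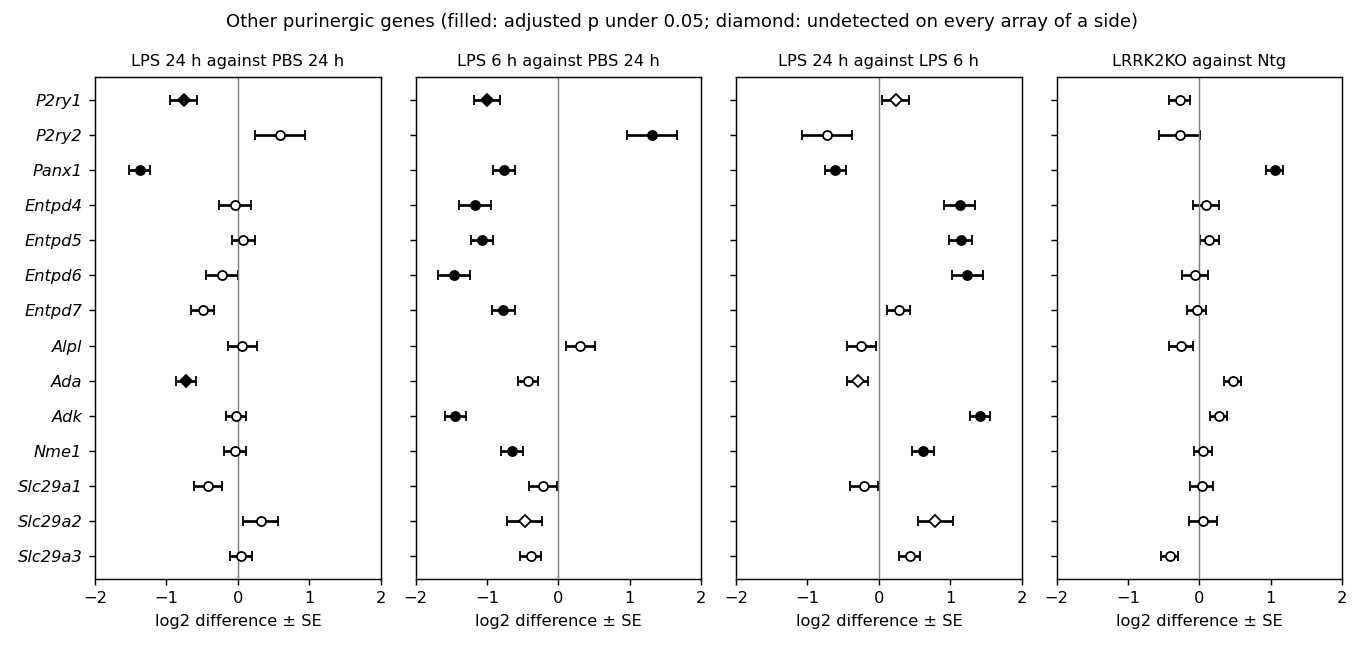
Log2 differences with standard errors (x axis) of the 14 other purinergic genes in the 4 comparisons, filled where the adjusted p was under 0.05 and drawn as diamonds where the gene was undetected on every array of a side. Adk, Entpd5 and Entpd6 lay left of 0 at LPS 6 h against PBS and right of 0 at LPS 24 h against LPS 6 h, and Panx1 was the only filled point in LRRK2KO against Ntg.

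Patterns most like those of the 3 called genes were found by the root mean square difference of centred log2 values over the 6 arrays, with no test. Nearest to Adora3 were Mgarp (0.23) and Chil1 (0.24), nearest to P2ry14 were Zfp36 (0.12) and Adar (0.13), and nearest to P2rx7 were Prcp and Trim28 (0.08 each). The 6 arrays share 3 arms, so many genes can follow a similar course.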

How the data were processed

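Microglial RNA was measured on 6 Illumina beadchips, 1 per genotype and arm, as the sample titles give them. The deposited table holds linear intensity values and detection p-values for 45281 probes, per the file headers, and the submitters' processing notes name BeadStudio. The authors' second deposited table holds normalized intensity with nearly equal medians (101.16 to 101.18). Quantile normalization would give such medians, and so would scaling to equal medians, so the method is not known from them. Other steps are not given in the sources used here. Background was corrected with limma 3.58.1 (R 4.3.3) neqc from the detection p-values (normexp, offset 16, quantile normalization, log2). Of the probes, 34885 carried 1 gene symbol, 18 several and 10378 none, and 0 symbols changed through a RefSeq table of GRCm38.p6. The probe with the highest mean among those detected (p under 0.01) on at least 2 arrays stood for a gene. lmFit and eBayes with genotype and arm as additive terms gave two-sided p-values, and 3.88 prior degrees of freedom. A gene undetected on every array of 1 side has a bound only. The members, lists, naming rule and tests were chosen with earlier results of these data known. Named are all 9 members, called genes of the purinergic list, and the 2 nearest patterns of each called member detected on at least 4 arrays. The fit was tested on simulated data. Alternatives were another normalization, scaling, offset, filter, detection threshold, probe rule, variance model and model terms, and leaving out each array. For the other purinergic genes they were added after the data were seen. The number of arrays limits the precision.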

Additional observations from a re-analysis of the deposited data

Results flagged for a closer look

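Some genotype differences ran in opposite directions in different arms, by at least 0.1 on the log2 scale on each side, and none of these was tested because each rests on single arrays. P2ry6 was 0.22 higher in LRRK2KO than Ntg at LPS 6 h and differed by -0.36 at LPS 24 h and by -0.21 at PBS 24 h, which puts the LPS 24 h difference -0.57 from that at LPS 6 h, and the LPS 6 h difference 0.42 from that at PBS. P2ry13 was 0.20 higher in LRRK2KO at LPS 24 h and differed by -0.46 at LPS 6 h and -0.34 at PBS 24 h, so the LPS 24 h difference lay 0.66 and 0.54 above the others. P2rx7, by probe ILMN_2620381, differed by 0.11 in LRRK2KO against Ntg at LPS 24 h and by -0.22 at LPS 6 h, a gap of 0.33. Its change between LPS 6 h and LPS 24 h was accordingly 0.19 in LRRK2KO and -0.14 in Ntg cells.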

How the results depend on the processing

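No pairing by replicate was possible because the groups share 1 replicate number only. The additive model compared the arms within each genotype. Of the 6 calls on members, that of Adora3 at LPS 24 h against PBS passed in all 9 other settings and without each array. Members called at LPS 24 h against PBS numbered 2, and 1 in the authors' normalized table, without a filter on dim probes, with the mean of detected probes, with an intensity trend and with arm alone in the model. At LPS 24 h against LPS 6 h they numbered 1, and 2 in the authors' table, at offset 50, with probes detected on all 6 arrays and with an intensity trend, where P2ry6 was added. Leaving out 1 array gave 1 to 2 members at LPS 24 h against PBS, 0 to 3 at LPS 6 h against PBS, 0 to 3 at LPS 24 h against LPS 6 h and 0 to 0 in LRRK2KO against Ntg.

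Over all genes, leaving out 1 array gave 319 to 1633 calls (1335 with all arrays), 1815 to 3325 (3613), 161 to 1976 (2048) and 0 to 122 (40) in the same order. With only the compared term in the model, 712, 1257 and 0 genes passed at LPS 24 h against PBS, at LPS 24 h against LPS 6 h and between genotypes. Genotype calls numbered 100 in the authors' table, 74 under median scaling, 112 at offset 50, 0 without a filter, 67 with the mean of probes and 183 with an intensity trend. Under median scaling, calls at LPS 6 h against PBS split into 1847 higher and 1689 lower, against 1357 and 2256, and at LPS 24 h against LPS 6 h into 934 and 1114, against 1216 and 832.

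Sign changes concerned differences that had not passed, with 1 exception. Under median scaling P2rx4 became 0.0142, 0.0515 and -0.0373 (LPS 24 h against PBS, LPS 6 h against PBS, LPS 24 h against LPS 6 h), P2ry6 0.28 at LPS 6 h against PBS, and P2rx7 -0.0155 at LPS 24 h against LPS 6 h and 0.0091 between genotypes. P2rx7 between genotypes was 0.0037 in the authors' table and 0.0028 at offset 50, and at LPS 24 h against LPS 6 h it was -0.15 with the mean of probes. Leaving out 1 array gave ranges that cross 0 for P2ry13 at LPS 24 h against PBS (-0.56 to 0.0374) and against LPS 6 h (-0.0106 to 0.59), for P2ry6 at LPS 6 h against PBS (-0.46 to 0.0352) and between genotypes (-0.28 to 0.0059), and for P2rx7 at LPS 24 h against LPS 6 h (-0.14 to 0.18) and between genotypes (-0.0582 to 0.11). The exception was Entpd4 at LPS 6 h against PBS, 0.20 with the mean of its probes, which move in opposite directions. The cause of the other changes was not tested. P2rx7 by ILMN_2620381 lay near background with LPS, at intensities of 125 to 145, and Adora3 lay near background at PBS, at 130 and 137. There, signal over background limits the precision.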
